A study of Mus musculus with 8 samples.

Results

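The 28 genes described here make cholesterol from acetyl-CoA, sense it, or move and store it inside the cell. They were taken by name from the 25078 genes of the deposited count table, all 28 were found there, and all 28 were among the 14438 genes tested. Messenger RNA was sequenced from the livers of 8 male mice (strain C57/BL6) kept for 25 weeks on food high in fat, fructose and cholesterol. Wild-type mice gave 5 of the livers. The other 3 came from mice whose genotype is given as Midn hemizygotes and whose titles read Het, here called het-labelled. They carry a global knockout allele of Midn, which encodes midnolin, beside an intact copy, and they stand in for homozygotes, most of which die as embryos. All animals had the same diet, so no liver shows the level of these genes without added cholesterol, with the age of the mice, their litters and the knockout design not given in the sources used here. Means are given with their SD over 5 wild-type and 3 het-labelled libraries throughout.

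Cholesterol synthesis is held in check by its own product. Srebf2 encodes SREBP2, a transcription factor that waits in the membrane of the endoplasmic reticulum, bound to the escort protein SCAP. When sterol is scarce, SCAP carries SREBP2 to the Golgi, proteases release its active part, and the genes for nearly every enzyme of the pathway are transcribed. When sterol is plentiful, the INSIG proteins hold SCAP in place and transcription of the pathway falls. The liver is a main site of this synthesis, and cholesterol in food is known to turn it down there.

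The known route of control runs through promoter sequences, and RefSeq (GRCm38.p6) gave the sequence around at least 1 start for 22 of the 28 genes. Fdps, Fdft1, Sqle, Stard4, Npc1 and Soat2 had no entry. A sterol response element core, written TCACNCCAC with N for any base and searched on both strands from 250 bases before to 50 bases after each start, was found in 1 of the 22 genes, Hmgcs1. Over all 27018 genes with an entry, 1.44% had it. The NF-Y box CCAAT, bound by a factor that works beside SREBP2, was found in 20 of the 22 genes (90.9%) against 41.1% of all genes. The Sp1 box GGGCGG was found in 21 of the 22 (95.5%) against 38.2%, and the E-box CACGTG in 5 (22.7%) against 8.09%. These are counts of letters in a fixed window, and promoters rich in G and C share such letters. An exact match was required, so an element that departs from these letters was not counted. Genes without an entry were not searched. The 250 bases before the start are printed for 5 genes whose values differ most in kind below: Hmgcs1, the gene with the element and one of the steadiest levels, Idi1, which varied most among wild-type livers, Nsdhl, which separated the groups upward, and Tm7sf2 and Lbr, whose products do the same step. They run 5′ to 3′ along the strand of the gene, with capitals for the sterol response element core and for CCAAT on either strand, where ATTGG is CCAAT read from the other strand.
Hmgcs1 (chr13:119690101-119690350, plus strand): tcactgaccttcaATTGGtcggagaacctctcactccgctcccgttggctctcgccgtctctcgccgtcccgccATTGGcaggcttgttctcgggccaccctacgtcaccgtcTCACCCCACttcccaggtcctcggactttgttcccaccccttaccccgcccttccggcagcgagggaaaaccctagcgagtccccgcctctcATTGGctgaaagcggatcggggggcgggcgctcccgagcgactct
Idi1 (chr13:8885356-8885605, plus strand): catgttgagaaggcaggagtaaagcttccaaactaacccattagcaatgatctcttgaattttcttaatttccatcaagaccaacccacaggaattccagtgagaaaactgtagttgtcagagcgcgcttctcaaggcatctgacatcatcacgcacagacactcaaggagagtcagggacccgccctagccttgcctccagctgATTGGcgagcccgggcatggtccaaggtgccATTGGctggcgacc
Nsdhl (chrX:72918271-72918520, plus strand): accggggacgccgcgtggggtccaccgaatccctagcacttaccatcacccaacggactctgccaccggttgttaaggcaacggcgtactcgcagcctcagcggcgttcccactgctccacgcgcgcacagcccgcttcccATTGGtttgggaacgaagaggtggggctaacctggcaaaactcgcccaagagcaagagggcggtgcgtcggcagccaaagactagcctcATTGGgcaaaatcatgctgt
Tm7sf2 (chr19:6067851-6068100, minus strand): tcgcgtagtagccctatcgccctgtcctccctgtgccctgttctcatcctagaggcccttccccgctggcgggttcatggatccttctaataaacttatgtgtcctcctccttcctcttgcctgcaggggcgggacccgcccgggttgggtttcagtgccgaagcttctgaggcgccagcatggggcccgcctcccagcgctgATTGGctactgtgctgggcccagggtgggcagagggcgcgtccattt
Lbr (chr1:181842402-181842651, minus strand): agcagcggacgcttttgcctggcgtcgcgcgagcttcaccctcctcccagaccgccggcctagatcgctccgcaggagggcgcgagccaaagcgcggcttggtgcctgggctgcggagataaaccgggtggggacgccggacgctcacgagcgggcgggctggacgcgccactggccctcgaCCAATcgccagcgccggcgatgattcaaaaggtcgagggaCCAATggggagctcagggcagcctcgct
In Hmgcs1 the core reads TCACCCCAC and begins 137 bases before the start. Tm7sf2 has its CCAAT box 47 bases before the start, and Lbr has 2, at 68 and 28 bases before it.

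Libraries held 17508221 to 24916239 counts assigned to genes, and the 28 genes together took 0.136 to 0.180% of them. Midn did not separate the groups: its CPM (counts scaled to a common library size by TMM) averaged 50.2 ± 18.8 in wild type (SD, n = 5) against 50.4 ± 10.7 for het-labelled livers (SD, n = 3), with an edgeR adjusted p of 0.994. Every direction below is therefore that of the libraries labelled het. The share of Rpph1, an RNA without a poly(A) tail, was 0.673 to 1.06% of counts in wild-type libraries 2, 4 and 5 and 0.229 to 0.399% in the other 5 libraries, so each set of wild-type libraries, 1 with 3 and 2 with 4 and 5, also serves as a reference by itself. Nothing in the labels names that division as a batch. It was drawn from these same counts, so every adjusted p against a single set below is descriptive only. Against libraries 2, 4 and 5, 8.4% of all genes were higher and 10.5% lower at an edgeR adjusted p under 0.05. Against libraries 1 and 3, 0.0956% were higher and 0.0478% lower. Of marker lists, the 8 pericentral genes were all higher at an unadjusted p under 0.05. Their summed level was 1942 to 3767 CPM in wild type and 6745 to 10686 CPM in het-labelled livers. Over all genes 10.3% were higher and 5.43% lower at that p, the shares beside every marker count here and below. Of 8 periportal genes 7 were tested, with 1 higher and 0 lower. The periportal genes summed to 6841 to 8755 CPM in wild type and to 9474, 4804 and 8225 CPM in het-labelled libraries 1 to 3. Of the 6 hepatocyte markers 2 were higher and 0 lower, and they summed to 30855 to 37783 CPM in wild type and to 62968, 35380 and 53471 CPM in het-labelled libraries 1, 2 and 3, and of the 6 markers of lipid-associated macrophages 0 were higher and 1 lower, with sums of 914 to 1438 CPM and of 320, 1220 and 372 CPM. Thus het-labelled library 2 lay inside the wild-type range in the hepatocyte and macrophage lists and libraries 1 and 3 outside it. In bulk tissue fewer cells of a type cannot be told apart from less RNA per cell.

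The steps of the pathway differed widely in transcript level. The authors' RPKM scales reads by exon length and a constant per library, which allows genes to be compared. On that scale the means over 8 livers ran from 0.762 for Mvd to 103 for Sc5d, a 135-fold range. Sc5d, a desaturase near the end of the pathway, was followed by Insig2 (62.0 RPKM), Insig1 (51.7 RPKM) and Ebp (42.1 RPKM), a sterol isomerase. At the low end stood Mvd, which makes isopentenyl diphosphate, and Sqle (0.988 RPKM), the squalene epoxidase known as a control point of the pathway. Idi1, which isomerises isopentenyl diphosphate, had 2.26 RPKM, Lss, the lanosterol synthase, 2.63 RPKM and Mvk, the mevalonate kinase, 2.90 RPKM. In the same livers Hmgcs1, which makes HMG-CoA at the entry of the pathway, had 24.2 RPKM and Fdps, which makes farnesyl diphosphate, 27.2 RPKM. In counts, Mvd had 15 to 56 and Sqle 15 to 125 per library, so their values carry the largest counting error of the 28.

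**Figure D1:**
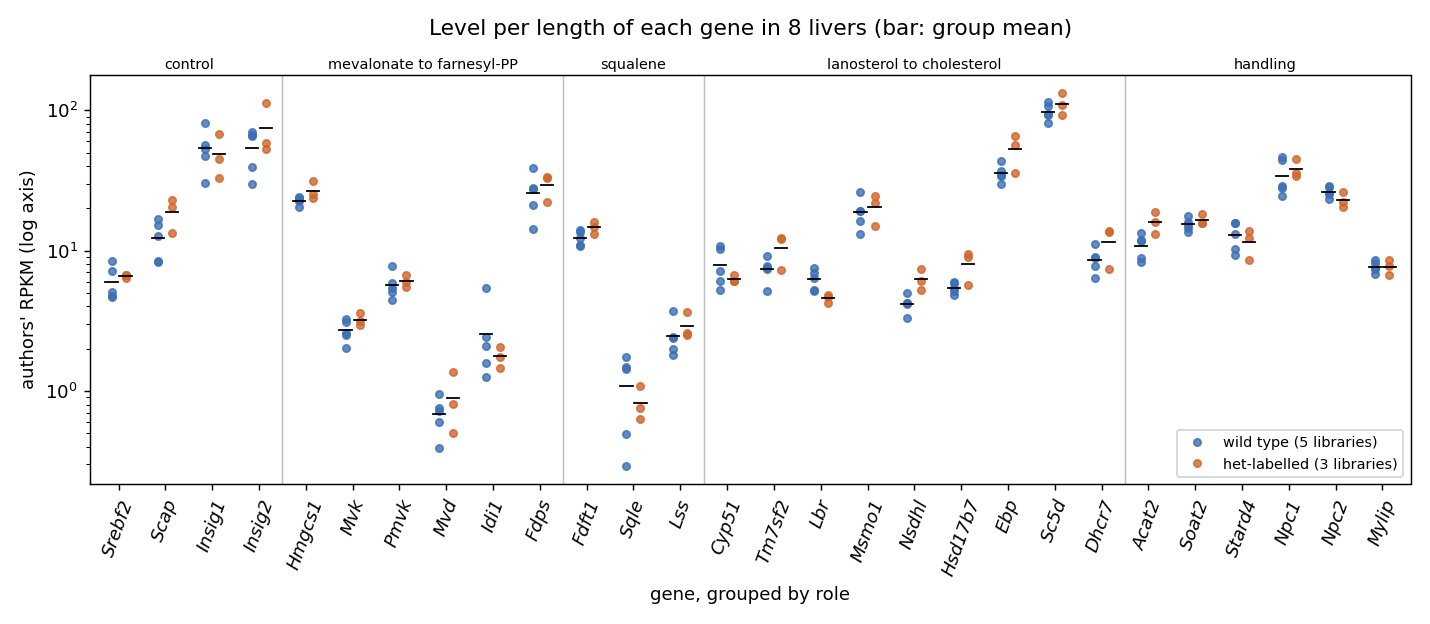
Authors' RPKM on a log axis for each of the 28 genes in 5 wild-type (blue) and 3 het-labelled (orange) libraries, with group means as bars and genes grouped by role. Mvd (0.762 on average) and Sqle (0.988) lie lowest and Sc5d (103) highest, and the points of the groups overlap for most genes.

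Between genotypes no gene of the 28 passed the test. edgeR's quasi-likelihood test called 0 of the 28 at an adjusted p under 0.05, as it did of all 14438 genes (0.0%), and the smallest adjusted p among the 28 was 0.259. DESeq2 also called 0 of the 28, against 1.22% of the genes to which it gave an adjusted p. At an unadjusted p under 0.05 in edgeR, 5 of the 28 were higher in het-labelled livers (17.9%, against 10.3% of all genes) and 1 was lower (3.57%, against 5.43%), where 15.7% of all genes passed in either direction. The 5 were Scap, Nsdhl, Hsd17b7, Ebp and Acat2, and the lower one was Lbr. The log2 fold change was above 0 for 21 of the 28 (75.0%), against 50.4% of all genes, and its median was 0.21 against 0.00. All 3 het-labelled libraries lay above every wild-type library for 2 genes, Nsdhl and Acat2 (7.54% of all genes did), and below for 1, Lbr (2.32%). For genes above every wild-type library, the share among the 28 was thus about that over all genes.

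With library size alone as the scaling, the median of all genes moved to −0.18 and that of the 28 to 0.037. The distance between them was 0.21 with TMM and 0.22 with library size alone. Over all genes the unadjusted calls split into 1487 higher and 784 lower with TMM, 427 and 1198 with library size alone, and 1148 and 973 with RLE scaling. Among the 28, Srebf2, Pmvk, Msmo1, Soat2, Npc1 and Mylip had values below 0 with library size alone. Without het-labelled library 3, Nsdhl alone of the 28 had an unadjusted p under 0.05, and was higher, where 4.29% of all genes were higher. Without het-labelled library 1, Nsdhl, Hsd17b7 and Acat2 had one, all higher, where 3.90% of all genes were higher. With all libraries 10.3% of all genes were higher, so the share fell over all genes too. Lbr, the lower one, passed in neither of these fits.

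**Figure D2:**
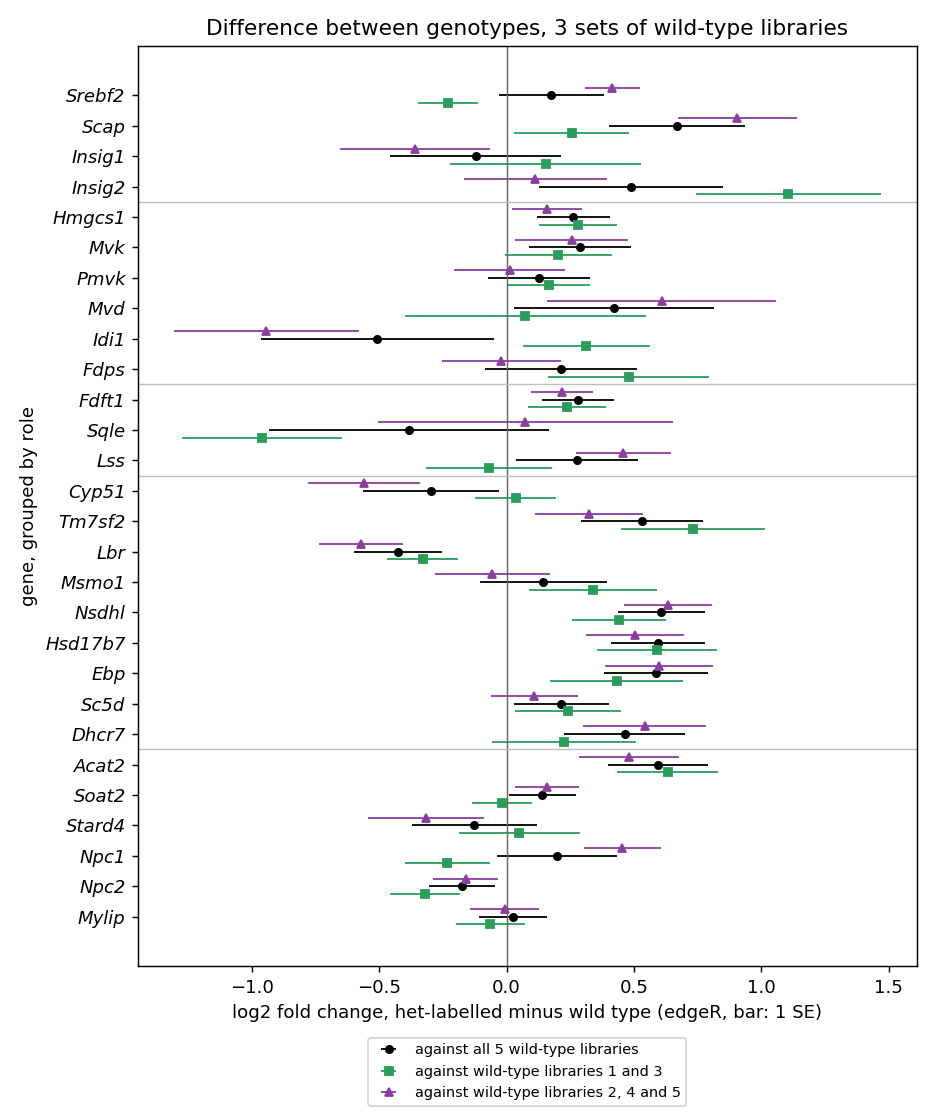
Log2 fold change (het-labelled minus wild type, edgeR, bars of 1 SE) of the 28 genes against all 5 wild-type libraries (black), wild-type libraries 1 and 3 (green) and wild-type libraries 2, 4 and 5 (purple). Nsdhl, Hsd17b7, Ebp, Acat2 and Tm7sf2 lie above 0 in all 3 sets. So do Scap, Insig2, Hmgcs1, Mvk, Pmvk, Mvd, Fdft1, Sc5d and Dhcr7. Lbr and Npc2 lie below 0 in all 3 sets, while Srebf2, Npc1 and Idi1 are among those that change side.

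Of the 4 control genes, Scap differed most between the groups. It stood at 72.0, 37.6, 63.5, 55.9 and 37.3 CPM in wild-type libraries 1 to 5 and at 102, 59.5 and 92.1 CPM in het-labelled libraries 1 to 3. Libraries 1 and 3 of the het-labelled group lay above all others, while library 2 lay inside the wild-type range. On the log2 scale this was a difference of 0.67 (SE 0.27, unadjusted p = 0.033, edgeR adjusted p = 0.290). It was 0.26 (SE 0.22, edgeR adjusted p = 0.456) against wild-type libraries 1 and 3. Against wild-type libraries 2, 4 and 5 it was 0.91 (SE 0.23, edgeR adjusted p = 0.038).

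Srebf2 itself differed among the wild-type livers. It had 38.8 and 32.0 CPM in wild-type libraries 1 and 3, 22.7, 23.6 and 22.2 CPM in libraries 2, 4 and 5, and 32.2, 30.4 and 31.9 CPM in the het-labelled livers. The het-labelled livers were thus close to each other (SD 0.964 CPM), near wild-type library 3 and above libraries 2, 4 and 5. Over all libraries they differed by 0.18 on the log2 scale (SE 0.21, edgeR adjusted p = 0.652). Against wild-type libraries 1 and 3 the difference was −0.23 (SE 0.12, edgeR adjusted p = 0.221). Against libraries 2, 4 and 5 it was 0.42 (SE 0.11, edgeR adjusted p = 0.039). Rpph1 share and Midn level also divided the wild-type livers in this way. Midn had 68.7 and 71.5 CPM in wild-type libraries 1 and 3 and 29.3 to 41.7 CPM in the other wild-type libraries. In het-labelled livers Midn had 60.4, 39.1 and 51.7 CPM. The 6 Kupffer cell markers (0 higher, 0 lower), picked after their values were seen, also divided them. They summed to 393 and 319 CPM in wild-type libraries 1 and 3 and to 630, 1175 and 1588 CPM in libraries 2, 4 and 5. In het-labelled libraries 1 to 3 these markers summed to 436, 509 and 583 CPM. The part of Rpph1, Midn and Kupffer cells in the Srebf2 values was not tested.

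The INSIG genes differed from each other in pattern. Insig2, whose product is known to hold SCAP back without depending on SREBP2 for its transcription, had 117 and 87.0 CPM in wild-type libraries 1 and 3, 219, 201 and 198 CPM in libraries 2, 4 and 5, and 181, 161 and 350 CPM in the het-labelled livers. It differed by 0.49 on the log2 scale (SE 0.36, edgeR adjusted p = 0.497), 1.11 (SE 0.36) against wild-type libraries 1 and 3, and 0.11 (SE 0.28) against the others. Without het-labelled library 3 the difference over all libraries was 0.060. Insig1, an SREBP2 target, had 151, 149, 78.5, 127 and 221 CPM in wild type and 125, 89.8 and 187 CPM in het-labelled livers (log2 fold change −0.12, SE 0.34, edgeR adjusted p = 0.856). Per length, the Insig2 to Insig1 ratio was 1.04 ± 0.315 in wild type and 1.53 ± 0.200 in het-labelled livers, with overlap, since wild-type library 4 had 1.41 and het-labelled library 1 had 1.30.

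The 6 enzymes from HMG-CoA to farnesyl diphosphate held no gene with an unadjusted p under 0.05 in edgeR, and their median log2 fold change was 0.24. Hmgcs1 was among the steadiest, at 83.0 ± 7.35 CPM in wild type against 99.5 ± 15.1 CPM with the het label. It is the gene with the sterol response element core printed above. Mvk and Pmvk, the kinases that act on mevalonate, differed by 0.29 (SE 0.20) and 0.13 (SE 0.20) on the log2 scale. Mvd had 1.29 ± 0.367 and 1.73 ± 0.862 CPM, the latter raised by het-labelled library 3 (2.67 CPM), without which the log2 fold change was −0.023 in place of 0.42. Fdps had 41.1, 33.0, 20.5, 40.9 and 58.0 CPM in wild type and 50.9, 33.7 and 49.9 CPM in het-labelled livers, wholly inside the wild-type range. Of its exon bases 77.4% are shared with Gm43738 on the same strand.

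Idi1 varied most of the 28 among wild-type livers, with a coefficient of variation of 65.7%. Wild-type library 5 had 16.0 CPM, against 4.57, 7.37, 3.55 and 6.15 CPM in wild-type libraries 1 to 4 and 4.38, 5.22 and 6.19 CPM in het-labelled libraries 1 to 3. That liver alone lay far above the rest, and the wild-type mean was 7.52 ± 4.94 CPM. On the log2 scale the genotypes differed by −0.51 (SE 0.46, edgeR adjusted p = 0.567), and by −0.035 without that library.

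Among the enzymes that make squalene and lanosterol, Sqle split the livers across genotype. It had 4.09, 4.22 and 4.67 CPM in wild-type libraries 1, 2 and 3, but 0.824 and 1.38 CPM in wild-type libraries 4 and 5, and 2.17, 3.07 and 1.81 CPM in het-labelled libraries 1, 2 and 3. All het-labelled values fell in the gap between the parts of the wild-type group, a division unlike that of Srebf2. The genotypes differed by −0.38 on the log2 scale (SE 0.55, edgeR adjusted p = 0.716). The 6 T and NK cell markers, a list picked here for its resemblance after the values were seen, summed to 18.9, 11.4 and 18.2 CPM in wild-type libraries 1 to 3, 4.61 and 7.35 CPM in libraries 4 and 5, and 7.56, 9.31 and 5.34 CPM in het-labelled libraries 1 to 3. Of the 6, 0 were higher and 1 lower, and none was at 0 in all libraries. Their part in the Sqle values was not tested. Fdft1, the squalene synthase, varied little among wild-type livers (46.5 ± 5.38 and 56.4 ± 5.75 CPM, log2 fold change 0.28, SE 0.14, edgeR adjusted p = 0.354), and 20.9% of its exon bases are shared with Ctsb on the other strand. Lss had 15.8 ± 4.50 and 19.2 ± 4.33 CPM.

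The enzymes that turn lanosterol into cholesterol held most of the genes at an unadjusted p under 0.05, 3 higher and 1 lower of 9 (10.3% and 5.43% of all genes were), with a median log2 fold change of 0.46. Nsdhl, a dehydrogenase that removes a carboxyl group from the sterol, had 11.1, 7.83, 9.19, 9.67 and 9.51 CPM in wild type and 17.1, 12.1 and 14.1 CPM in het-labelled livers. Every het-labelled value lay above every wild-type value, by 1.52-fold in the fit (log2 fold change 0.61, SE 0.17, unadjusted p = 0.00556, edgeR adjusted p = 0.259). It was 0.44 (SE 0.19, edgeR adjusted p = 0.161) against wild-type libraries 1 and 3. Against libraries 2, 4 and 5 it was 0.63 (SE 0.17, edgeR adjusted p = 0.042). When each library was left out in turn it was between 0.47 and 0.73.

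Hsd17b7, the reductase that acts next to Nsdhl, was steady in wild type and high in 2 het-labelled livers. Its values were 27.1, 25.2, 21.6, 25.2 and 27.9 CPM in wild type and 43.0, 26.9 and 45.0 CPM in het-labelled livers (log2 fold change 0.59, SE 0.18, unadjusted p = 0.010, edgeR adjusted p = 0.259). Ebp had 76.3, 63.7, 58.9, 65.6 and 53.5 CPM and 120, 64.6 and 103 CPM (0.59, SE 0.21, edgeR adjusted p = 0.268). Dhcr7, a reductase at the end of the pathway, had 31.4, 19.3, 24.3, 26.0 and 22.3 CPM and 40.9, 21.4 and 39.7 CPM (0.46, SE 0.24, edgeR adjusted p = 0.357). In all 3 genes het-labelled libraries 1 and 3 lay above every wild-type library and library 2 lay inside the wild-type range. The hepatocyte marker sum had the same layout, as given above. The 6 sinusoidal endothelium markers (1 higher, 0 lower) had it too, with sums of 297 to 366 CPM in wild type and 456, 321 and 456 CPM in het-labelled libraries 1 to 3. The reverse layout, with libraries 1 and 3 below every wild-type library, was that of the lipid-associated macrophage markers above, of the 6 bile duct markers (0 higher, 0 lower, 406 to 890 CPM in wild type and 147, 742 and 158 CPM) and of the 6 stellate cell and fibroblast markers (1 higher, 0 lower, 1227 to 1946 CPM and 1108, 1754 and 813 CPM). Spp1 is in both the macrophage and the bile duct list, with the highest mean level of each (276 RPKM), so their sums are not independent. The part of the cell types named here in the values of the 3 genes was not tested.

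Tm7sf2 and Lbr encode enzymes that reduce the same double bond of a sterol intermediate. Lbr also anchors chromatin at the nuclear envelope. Tm7sf2 had 11.1, 12.3, 7.51, 11.3 and 13.9 CPM in wild type and 18.7, 11.1 and 18.8 CPM in het-labelled livers (log2 fold change 0.53, SE 0.24, edgeR adjusted p = 0.322). Lbr had 18.4, 26.3, 22.2, 19.2 and 27.4 CPM in wild type and 15.6, 17.8 and 17.2 CPM in het-labelled livers, where every value lay below the lowest wild-type value (−0.43, SE 0.17, unadjusted p = 0.034, edgeR adjusted p = 0.291). Against wild-type libraries 2, 4 and 5 the Lbr difference was −0.57 (SE 0.17, edgeR adjusted p = 0.048). Against libraries 1 and 3 it was −0.33 (SE 0.14, edgeR adjusted p = 0.166).

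The Tm7sf2 to Lbr ratio within a library, on the RPKM scale, was 1.46, 1.13, 0.813, 1.41 and 1.22 in wild type and 2.87, 1.49 and 2.63 in het-labelled livers. The means were 1.20 ± 0.258 and 2.33 ± 0.734. All het-labelled ratios lay above all wild-type ones, although het-labelled library 2 was only just above wild-type library 1. A ratio within a library does not depend on scaling, but this pair was picked after its values were seen, so no test is given.

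**Figure D3:**
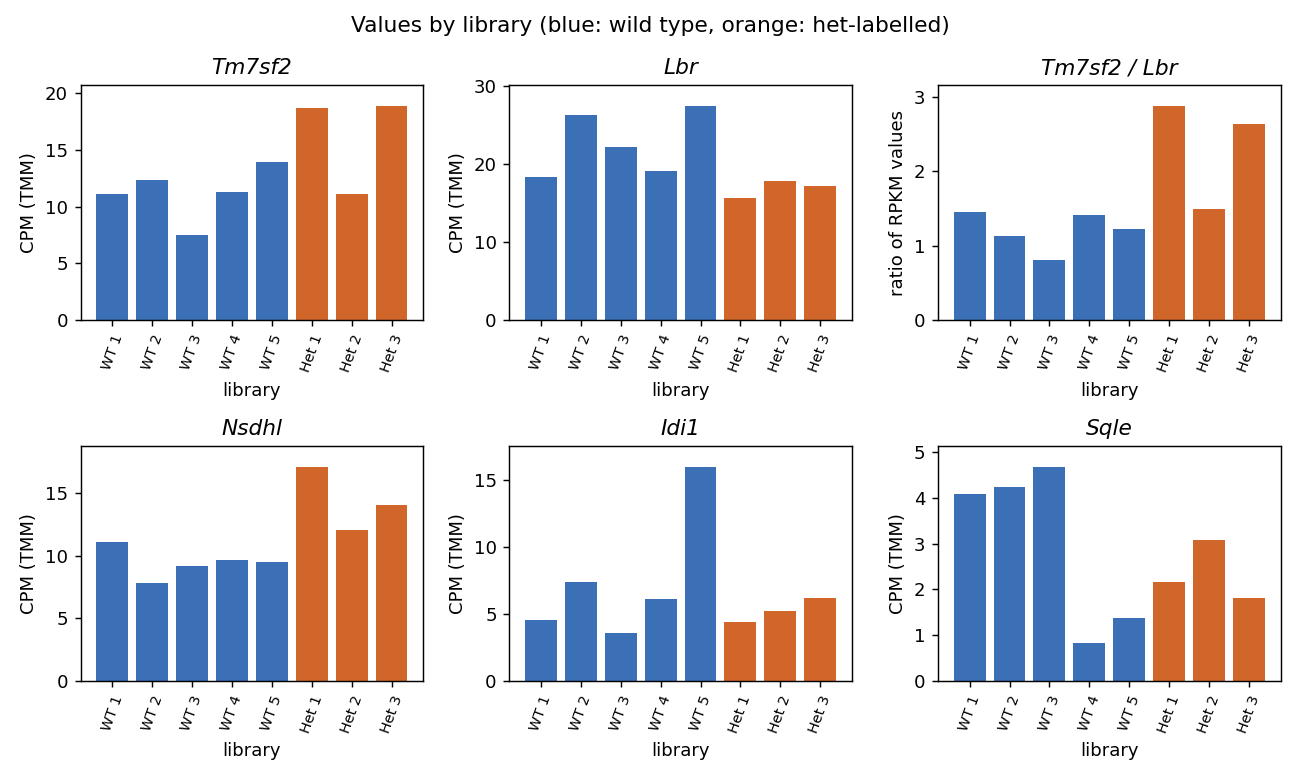
CPM of Tm7sf2, Lbr, Nsdhl, Idi1 and Sqle and the Tm7sf2 to Lbr ratio of RPKM values in each of 5 wild-type (blue) and 3 het-labelled (orange) libraries. Nsdhl and the ratio are higher and Lbr lower in every het-labelled library, Idi1 is highest in wild-type library 5 (16.0 CPM), and Sqle is lowest in wild-type library 4 (0.824 CPM).

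The other late enzymes, Cyp51, Msmo1 and Sc5d, overlapped between the groups, as did Hsd17b7, Ebp, Dhcr7 and Tm7sf2. Cyp51, the lanosterol demethylase, had 31.1, 49.9, 22.3, 26.9 and 45.7 CPM in wild type and 27.9, 27.3 and 30.6 CPM in het-labelled livers (−0.30, SE 0.27, edgeR adjusted p = 0.564), the latter all inside the wild-type range. Msmo1, a methylsterol oxidase, had 35.4 ± 9.52 and 39.1 ± 9.56 CPM, and Sc5d 225 ± 31.9 and 261 ± 47.0 CPM.

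Of the 6 genes for supply and handling, Acat2 was the one with an unadjusted p under 0.05. In the mouse Acat2 encodes the cytosolic thiolase that joins acetyl-CoA units at the start of the pathway. It had 24.6, 18.3, 18.0, 28.2 and 25.3 CPM in wild type and 34.5, 28.2 and 40.9 CPM in het-labelled livers (log2 fold change 0.59, SE 0.20, unadjusted p = 0.014, edgeR adjusted p = 0.265). Every het-labelled value lay above every wild-type value, but het-labelled library 2 and wild-type library 4 both read 28.2 CPM at this precision. The difference was 0.63 (SE 0.20) against wild-type libraries 1 and 3 and 0.48 (SE 0.19) against libraries 2, 4 and 5.

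None of the genes that store and move cholesterol had an unadjusted p under 0.05 in edgeR. Soat2, which esterifies cholesterol in hepatocytes, had 33.3 ± 3.11 CPM in wild type against 36.7 ± 3.39 CPM with the het label. Mylip, a ubiquitin ligase induced by oxysterols through LXR, had 23.4 ± 1.63 and 23.8 ± 3.04 CPM, a log2 difference of 0.025 (SE 0.13, edgeR adjusted p = 0.929). Npc2, which hands cholesterol to NPC1 in the lysosome, was the least variable of the 28 in wild type (coefficient of variation 5.88%) and differed by −0.17 (SE 0.13). Npc1 had 242 and 224 CPM in wild-type libraries 1 and 3, 154, 155 and 130 CPM in libraries 2, 4 and 5, and 246, 183 and 194 CPM in het-labelled livers, the same division as for Srebf2. Against wild-type libraries 1 and 3 its difference was −0.23 (SE 0.17, edgeR adjusted p = 0.369). Against libraries 2, 4 and 5 it was 0.46 (SE 0.15, edgeR adjusted p = 0.070). Stard4, a carrier of sterol through the cytosol, had 71.3 ± 18.4 and 65.3 ± 15.5 CPM.

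The 28 genes did not share an order of libraries. Het-labelled library 3 was highest for 11 of the 28 (39.3%, against 13.7% of all genes tested), het-labelled library 1 and wild-type library 5 for 6 each (21.4%, against 19.4% and 18.9%). Wild-type library 3 was lowest for 12 (42.9%, against 24.3%), among them Insig1, Insig2, Idi1, Fdps, Cyp51 and Msmo1. Sqle went the other way, with its highest value in that library. Averaged over the 18 synthesis enzymes, log2 CPM minus each gene's mean was 0.05, −0.08, −0.28, −0.23 and 0.13 in wild-type libraries 1 to 5 and 0.20, −0.11 and 0.31 in het-labelled libraries 1 to 3. Library 2 of the het-labelled group again lay inside the wild-type range. The median coefficient of variation in wild type was 21.8% over the 28 genes and 24.5% over all genes tested.

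**Figure D4:**
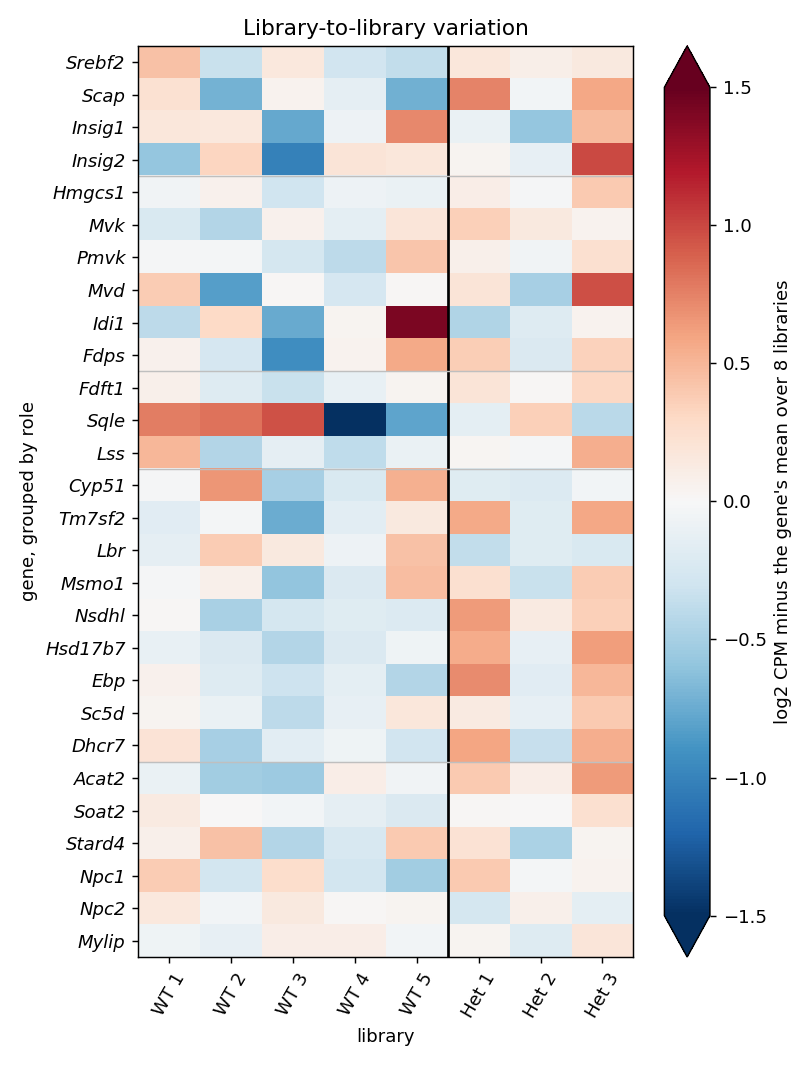
Log2 CPM minus each gene's mean over 8 libraries, by library (columns, wild type left of the black line) and gene (rows, grouped by role). Wild-type library 3 is lowest for 12 genes and het-labelled library 3 highest for 11, and Sqle has its highest value in wild-type library 3.

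Against the parts of the wild-type group, the share called differed over all genes as well as among the 28. Against wild-type libraries 1 and 3, 4 of the 28 were higher at an unadjusted p under 0.05 (16.7% of all genes were) and 1 was lower (14.9%), with 0 called by edgeR after adjustment, where 0.0956% of all genes were called higher and 0.0478% lower. Against wild-type libraries 2, 4 and 5, 8 were higher (18.8% of all genes) and 3 lower (18.7%). In that comparison edgeR called Srebf2, Scap and Nsdhl higher after adjustment (8.4% of all genes were) and Lbr lower (10.5%). The comparisons share the het-labelled libraries. The sets were divided by values of these same libraries, a division that Srebf2 follows, so these calls describe the values and are no independent support.

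Neighbouring pathways are given list by list, and each count stands against the 10.3% of all genes that were higher and the 5.43% that were lower at the same unadjusted p. Of 8 genes for SREBP cleavage and sterol sensing, 0 were higher and 1 was lower at an unadjusted p under 0.05 in edgeR (0 after adjustment). The lower one was Rnf145, a sterol-responsive ubiquitin ligase of the endoplasmic reticulum, with 74.7 ± 9.74 CPM in wild type against 54.2 ± 5.73 CPM with the het label, a log2 difference of −0.46 (SE 0.15, edgeR adjusted p = 0.265). Mbtps1, the first SREBP protease, had 64.5 ± 13.9 and 86.4 ± 7.65 CPM (0.42, SE 0.19). Mbtps2, the second, went the other way, with 27.2 ± 6.84 and 20.9 ± 0.458 CPM (−0.38, SE 0.20, edgeR adjusted p = 0.377). For Mbtps2 and Rnf145 every het-labelled value lay below every wild-type value (2.32% of all genes did). For Erlin2, also of this list, every het-labelled value lay above every wild-type value (7.54% of all genes did). Erlin2 had 47.2 ± 2.01 CPM in wild type and 55.8 ± 3.96 CPM with the het label. In the branches that lead from farnesyl diphosphate to dolichol, ubiquinone and prenylated proteins, 3 of 11 tested genes were higher and 0 lower (10.3% and 5.43% of all genes). They were Icmt (0.46), which methylates prenylated proteins, Rabggta (0.54), a prenyltransferase subunit, and Dhdds (0.40), which makes dolichol chains.

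Fatty acid synthesis genes driven by SREBP1c gave 0 of 14 at an unadjusted p under 0.05 in edgeR, with a median of 0.27. Srebf1 had 226 ± 46.3 CPM in wild type against 333 ± 124 CPM with the het label, a difference of 0.56 (SE 0.27, edgeR adjusted p = 0.343). LXR and sterol efflux genes also gave 0 of 8, with Scarb1, the receptor for high-density lipoprotein, at 0.45 (SE 0.23).

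Conversion of cholesterol to bile acids was the neighbouring list with the largest share of unadjusted calls, 4 of 7 tested genes higher and 0 lower (10.3% and 5.43% of all genes), with a median of 0.69. Cyp7b1, an oxysterol hydroxylase, had 59.9, 46.5, 28.7, 48.8 and 51.5 CPM in wild type and 175, 72.9 and 110 CPM in het-labelled livers (log2 fold change 1.34, SE 0.30, edgeR adjusted p = 0.259). All het-labelled values lay above all wild-type ones, and DESeq2 gave Cyp7b1 an adjusted p of 0.014. Cyp27a1, which opens the acidic route to bile acids, had 218 ± 38.2 and 352 ± 82.9 CPM (0.69, SE 0.21, edgeR adjusted p = 0.259). Cyp8b1, which sets the cholic acid share, had 252, 28.7 and 234 CPM in het-labelled livers against 22.9 to 90.0 CPM in wild type.

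Among transport and storage genes, 2 of 12 tested were higher and 1 lower, or 16.7% and 8.33% against 10.3% and 5.43% of all genes. The lower one was Soat1, the esterifying enzyme known from macrophages, at 42.9 ± 3.35 CPM in wild type and 24.6, 37.4 and 24.3 CPM in het-labelled livers (−0.58, SE 0.17, edgeR adjusted p = 0.259). Het-labelled library 2, highest of the 3 for Soat1, was also highest of the 3 for lipid-associated macrophage markers, whose part was not tested. The Soat2 to Soat1 ratio on the RPKM scale was 1.76 ± 0.290 in wild type and 3.21, 2.08 and 3.76 in het-labelled livers, where library 2 lay inside the wild-type range that ended at 2.21. The higher ones were Stard5 (0.47), a sterol carrier, and Lcat (0.72), which esterifies cholesterol in plasma. Of 12 core clock genes, which set daily rhythms of cholesterol synthesis, 2 were higher and 0 lower, 16.7% against 10.3% of all genes for the higher ones. Cry1 had 7.19 ± 1.48 and 13.4 ± 2.84 CPM (0.90, SE 0.22, edgeR adjusted p = 0.259). Livers were collected at an hour not given in the sources used here.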

How the data were processed

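Each library is the messenger RNA of the liver of 1 mouse, per the labels. Reads were handled with bcl2fastq (2.18.0.12), STAR and HTSeq on the build mm10, per the submitters' processing notes, with annotation, counting mode and strand setting not given in the sources used here. The authors deposited raw counts per gene and RPKM values. Each deposited RPKM was found to equal count over exon length and a constant per library. That constant was not the plain library size. Read as a total, it was 0.888 (het-labelled library 3) to 1.25 (wild-type library 3) times the library's counts. In GENCODE M21, 9 of the 28 genes share exon bases with another gene, and Fdps shares 77.4% of them with Gm43738, so their counts are uncertain. Unused sample columns numbered 0, and 2 repeated symbols were made unique.

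Genes passed filterByExpr of edgeR (at least 10 counts in enough libraries, at least 15 in all), were scaled by TMM (factors 0.852 to 1.27) and tested over all genes with the robust quasi-likelihood test, two-sided, with Benjamini-Hochberg adjustment at 0.05. SE is the log2 fold change over the root of F. Replicates were numbered in accession order and pair nothing. Litters are not named, and p-values therefore measure only the spread between these livers. Every pair of replicates differed beyond sampling noise (chi-square over degrees of freedom at least 22.9), so none was counted as a copy. The members, lists and alternatives were chosen with earlier results of these data known. Named genes are all 28, Midn, Rpph1 and at most 3 of each neighbouring list with the smallest p. Mbtps2, given beside Mbtps1, is not among them. Alternatives were DESeq2, limma-voom, limma on log2 RPKM (pseudocounts 0.1 and 1), RLE, scaling by library size alone, a filter at a mean of 1 CPM or none, each library left out, and each set of wild-type libraries. The procedure was tested on simulated data. Versions were edgeR 4.0.16, DESeq2 1.42.0 and limma 3.58.1 in R 4.3.3, with matplotlib 3.10.9 in Python 3.11.15.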

Additional observations from a re-analysis of the deposited data

Results flagged for a closer look

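In the wild-type group of 5, Per2, a core clock gene, had 32.3 CPM in library 2 against 47.8 CPM in the next lowest library, a gap of 0.769 of the group's range where 0.710 is the limit at 95%. It was the only gap beyond the limit among the 51 genes checked, 28 of them described above, and chance gives about 1 in 20.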

How the results depend on the processing

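The number of livers, with 3 in the het-labelled group, limits precision, and Mvd and Sqle had low counts. Of the 28 genes, 14 kept the sign of their log2 fold change under all 18 alternatives, as did 21 of the 23 other named genes. The number of genes called over the whole table was 0 in edgeR, 176 in DESeq2, 21 against wild-type libraries 1 and 3 and 2632 against wild-type libraries 2, 4 and 5. The number of the 28 with an unadjusted p under 0.05 was 6, where 10.3% of all genes were higher and 5.43% lower. It was 3 with library size alone (2 higher and 1 lower), where 2.96% of all genes were higher and 8.30% lower. Against wild-type libraries 2, 4 and 5 it was 11, where 18.8% of all genes were higher and 18.7% lower. Leaving out each library in turn gave 0 to 0 genes called, 1 to 8 of the 28 at an unadjusted p under 0.05, and a median log2 fold change of 0.080 to 0.34. That median was 0.037 with library size alone. The count of 1 came without het-labelled library 3 (4.29% of all genes higher, 1.67% lower). The count of 8 came without wild-type library 1 (11.4% of all genes higher, 6.33% lower). The sign turned for Mylip (−0.024) and Midn (−0.041) with RLE, for Srebf2 (−0.047), Pmvk (−0.054), Msmo1 (−0.039), Soat2 (−0.064), Npc1 (−0.041), Mylip (−0.18) and Midn (−0.26) with library size alone, for Mylip (−0.015) and Midn (−0.032) in DESeq2, for Midn (−0.015) with a mean of 1 CPM, and for Mylip (−0.011) and again Mylip (−0.0098) on RPKM with pseudocounts of 0.1 and 1. Against wild-type libraries 1 and 3 it turned for Srebf2 (−0.23), Insig1 (0.15), Idi1 (0.31), Lss (−0.069), Cyp51 (0.037), Soat2 (−0.016), Stard4 (0.050), Npc1 (−0.23), Mylip (−0.064), Midn (−0.54) and Rpph1 (0.24), and against libraries 2, 4 and 5 for Fdps (−0.021), Sqle (0.074), Msmo1 (−0.057) and Mylip (−0.0068). With single libraries left out, ranges that crossed 0 were those of Insig1 (−0.44 to 0.11), Midn (−0.14 to 0.17), Msmo1 (−0.016 to 0.34), Mvd (−0.023 to 0.71), Mylip (−0.058 to 0.13) and Stard4 (−0.28 to 0.057). The cause of these shifts was not tested. No paired analysis was possible because the labels carry no number shared between the groups.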

Other observations

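Ass1, a urea cycle enzyme and a periportal marker, was counted at 0.11 to 0.67 CPM in every library, wild type included, while Cps1 of the same cycle stood at 2165 to 4842 CPM. Ass1 was picked after its values were seen. The 5 markers of adrenal cortex, a tissue with high cholesterol synthesis, summed to 2.91 to 13.9 CPM in wild type and 8.88 to 11.7 CPM in het-labelled livers. Of these, Cyp11b1, Cyp11a1 and Hsd3b1 stayed under 1 CPM in every library. Star (log2 fold change 0.20) and Cyp21a1 (0.97) were tested, and neither had an unadjusted p under 0.05 in edgeR.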
